A study of Homo sapiens with 6 samples.

Results

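The Wnt pathway was described here through 54 genes for its ligands, receptors, inhibitors, cytoplasmic components and nuclear factors, chosen by gene symbol. Of these, 52 had a probe with that symbol as its only gene name, out of 18852 genes on the array with such a probe, and each gene was represented by its probe with the highest mean raw signal. PORCN and TCF7 had no such probe and are named only. The cells were HEK293, a permanent human line that came from embryonic kidney. In 1 group (tRA/cAMP, 3 samples) they grew for 3 days with all-trans retinoic acid, a vitamin A derivative that binds retinoic acid receptors, and N6,2'-O-dibutyryl-cAMP, a membrane-permeant cAMP analog that activates protein kinase A. In the other (control, 3 samples) they grew for 3 days in complete medium without either agent. No sample had a single agent, so the share of each in any difference cannot be told apart, and the labels used here give no dose and no separate clone or passage for the samples.

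Wnt proteins are secreted, lipid-modified ligands that bind Frizzled receptors together with a co-receptor. With LRP5 or LRP6 as co-receptor they inactivate a cytoplasmic destruction complex of Axin, APC, casein kinase 1 and GSK3, so that beta-catenin accumulates and activates genes bound by TCF/LEF factors. Without beta-catenin these factors recruit Groucho/TLE corepressors, and with ROR or RYK as receptor Wnt proteins signal without beta-catenin. The pathway is known for its part in patterning of the embryo and in kidney development.

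None of the 37 members that could be tested passed the threshold in either direction. A gene entered the test if either group had its probe detected, at a detection p under 0.01, on each of 3 arrays. The threshold was a Benjamini-Hochberg adjusted p of 0.05 in limma over all 9942 genes tested. Over all these genes 2.53% were called, 108 (1.09%) higher and 144 (1.45%) lower with tRA/cAMP, or 43 higher and 120 lower without normalization between arrays. The smallest adjusted p of a member was 0.0628, for TLE3. The tested members differed by between -0.57 and 0.51 on the log2 scale (tRA/cAMP minus control), with a median of -0.021, while all tested genes ranged from -2.22 to 5.89 with a median of 0.0018. The difference was under 0.25 in either direction for 75.7% of the 37 members, against 77.0% of all tested genes.

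**Figure D1:**
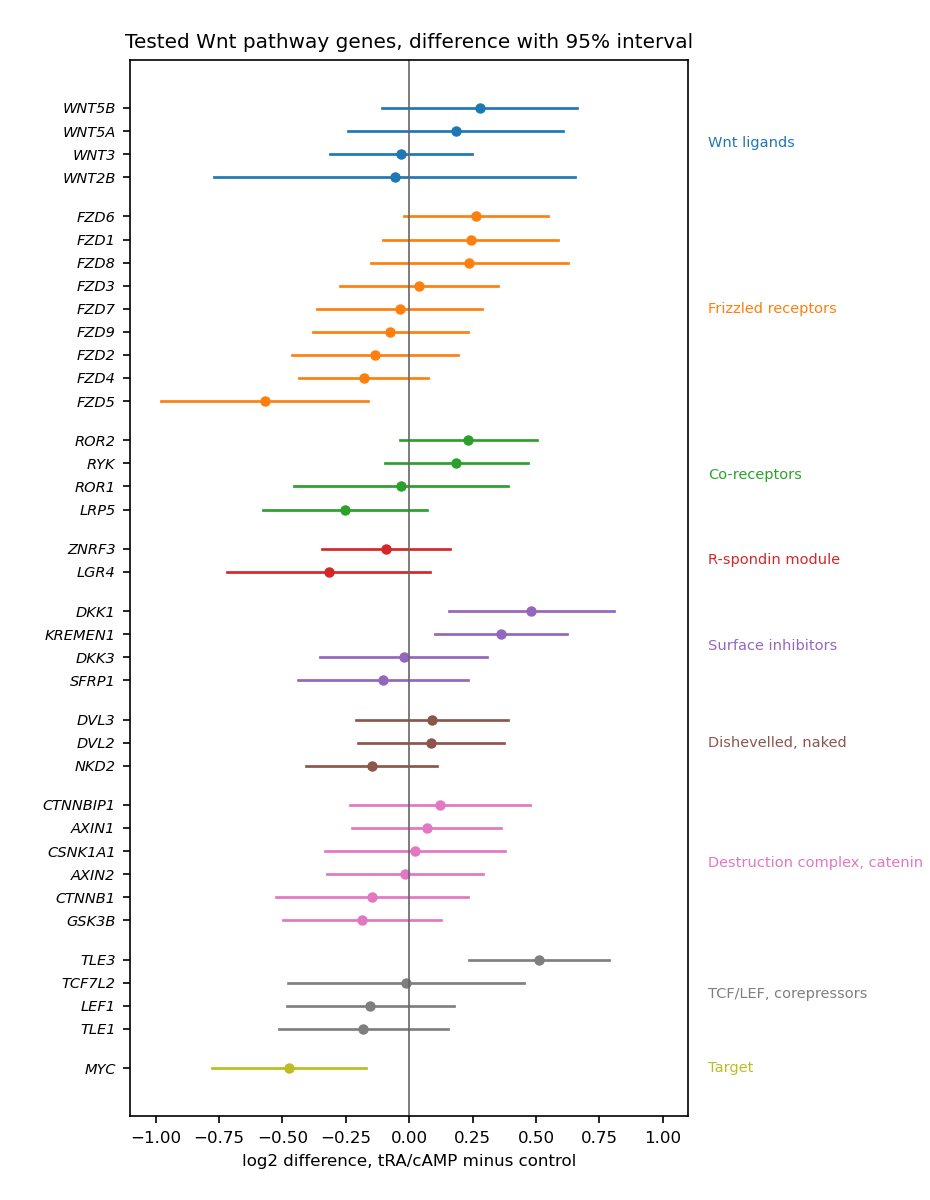
The 37 tested members by role, with the log2 difference (tRA/cAMP minus control) as a point and its 95% interval as a line (limma, 3 arrays per group). No point lies beyond -0.57 or 0.51, and the intervals of DKK1, KREMEN1, TLE3, FZD5 and MYC leave out 0 before any adjustment.

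The standard error of a member's difference had a median of 0.15 on the log2 scale and reached 0.32 for WNT2B. The 95% interval, not adjusted for the number of genes, stayed within 2-fold in both directions for 37 of 37 tested members and within 1.5-fold for 26. For the other 11 (WNT2B, WNT5A, WNT5B, FZD1, FZD5, FZD8, LGR4, DKK1, KREMEN1, TLE3 and MYC) a change of 1.5-fold lay inside the interval.

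Between 14792 and 16103 of 48803 probes per array were detected. The correlation between arrays was 0.9855 to 0.9895 within a group, and 0.976 to 0.981 across groups. The labels do not say that samples came from separate cultures, so every p-value below rests on a spread that may be technical only. One chip carried all 6 arrays, the controls in its first positions, and a position effect and a group effect cannot be told apart. Of 12 embryonic kidney and epithelial markers 7 were detected on all 6 arrays, among them the keratins KRT8 and KRT18 and the kidney transcription factors WT1, LHX1 and OSR1 (EYA1 of the same list fell and GATA3 rose), while PAX2, PAX8, SIX2, EPCAM and CDH1 were not detected on any array. Of 8 fibroblast markers 2 were detected on all arrays and 5 (COL1A2, DCN, THY1, PDGFRB and FAP) on none. The summed linear level of these 8 lay between 2323 and 3195 in tRA/cAMP cells, against 5804 to 6386 in control cells, with COL3A1 and LUM lower past the threshold, and its part in the results on Wnt genes was not tested. For the kidney and epithelial list this sum was 9044 to 9687 in tRA/cAMP cells and 8449 to 9254 in control cells. For 8 neuronal markers (3 not detected) it was 4769 to 4956 in tRA/cAMP cells and 4468 to 4741 in control cells, where SNAP25 rose by 1.28 and MAP2 fell by 0.84 on the log2 scale past the threshold. It was, for 6 blood markers (4 not detected, PTPRC among them), 1119 to 1664 in tRA/cAMP cells and 1192 to 1695 in control cells. The 5 endothelial markers (CDH5, KDR and TEK not detected) summed to 384 to 676 in tRA/cAMP cells and 676 to 798 in control cells, and VWF, the 1 of them that was tested, fell by 1.52 on the log2 scale past the threshold. VWF was not detected on all 6 arrays, so the size of this fall rests in part on values near background. The part of these markers in the results was not tested either. In bulk samples fewer cells of a type and less RNA per cell cannot be told apart.

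Of the 9 ligands among the members, WNT3, WNT5A and WNT5B were detected on all 6 arrays and WNT2B on 2 tRA/cAMP and 3 control arrays. WNT4, WNT6, WNT7B and WNT10B were not well above background on any array. Of all 18852 genes with a probe, 9451 were detected on all 6 arrays and 7882 on none. WNT11, a ligand known for signalling without beta-catenin, was detected on 1 tRA/cAMP array and on no control array, too few for a test. Its normalized log2 levels were 7.24, 7.51 and 7.48 in tRA/cAMP cells, against 7.25, 7.21 and 6.99 in control cells. These ranges overlapped.

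WNT3, a ligand that signals through beta-catenin, had log2 levels of 10.10, 10.31 and 10.21 in tRA/cAMP cells, against 10.08, 10.35 and 10.29 in control cells. The 6 values intermixed, and the difference of -0.03 (standard error 0.13) was smaller than the spread between arrays. WNT5A and WNT5B, known mainly for signalling without beta-catenin, differed by 0.18 (95% interval -0.24 to 0.61) and 0.28 (95% interval -0.11 to 0.66), adjusted p = 0.76 and 0.53 in limma. WNT2B differed by -0.06, with 7.98 ± 0.75 in tRA/cAMP cells and 8.03 ± 0.36 in control cells (SD, n = 3 each), since 1 tRA/cAMP array lay above the rest.

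Frizzled receptors are the seven-pass membrane proteins that bind Wnt through a cysteine-rich domain. The 9 among the members (FZD10 was not one of them) were detected on every array. Of these, 4 differed upward and 5 downward, with a median of -0.038, and none passed the threshold in limma (adjusted p = 0.17 to 0.94), where 1 had an unadjusted p under 0.05. FZD2 had log2 levels of 12.05, 12.08 and 12.13 in tRA/cAMP cells, against 11.94, 12.23 and 12.49 in control cells. The tRA/cAMP values fell inside the control range. FZD5 was the 1 Frizzled gene among the members with an unadjusted p under 0.05. Its log2 levels were 7.86, 8.34 and 7.88 in tRA/cAMP cells, against 8.50, 8.35 and 8.94 in control cells. The groups did not overlap, by less than 0.01 between the nearest arrays, and the difference was -0.57 (standard error 0.18, adjusted p = 0.17 in limma). FZD4 also had all 3 tRA/cAMP arrays below the controls, at a difference of -0.18 (adjusted p = 0.54 in limma), while FZD6, FZD1 and FZD8 differed by 0.26, 0.24 and 0.24.

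Among the co-receptors, LRP5, ROR1, ROR2 and RYK were detected on all arrays, and none passed the threshold. RYK, a Wnt-binding receptor with a kinase-like domain, had log2 levels of 13.11, 13.34 and 13.23 in tRA/cAMP cells, against 13.11, 13.13 and 12.88 in control cells. The ranges overlapped (difference 0.19, standard error 0.13), and its other tested probes differed by -0.03 and 0.04. LRP5, which with LRP6 carries the signal to the destruction complex, differed by -0.25 (95% interval -0.58 to 0.07), and its second tested probe by -0.28. ROR2, a tyrosine kinase receptor of WNT5A, differed by 0.23 (95% interval -0.04 to 0.50). LRP6 was detected on 0 tRA/cAMP arrays and 2 control arrays and was not tested. Its log2 levels were 6.53, 7.23 and 7.41 in tRA/cAMP cells, against 8.87, 7.51 and 7.14 in control cells, so 1 control array lay above the rest and the groups overlapped.

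The R-spondin branch sets how many Frizzled receptors stay at the surface: the ligases RNF43 and ZNRF3 remove them, and R-spondins bound to LGR receptors block these ligases. LGR4 had log2 levels of 9.80, 9.61 and 9.54 in tRA/cAMP cells, against 9.54, 10.23 and 10.13 in control cells. The lowest control array lay among the tRA/cAMP arrays, and the difference of -0.32 (standard error 0.18) had an adjusted p of 0.48 in limma. ZNRF3 differed by -0.09 (standard error 0.11). RNF43 was detected on 1 tRA/cAMP and 2 control arrays and LGR5 on none, so neither was tested.

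Of the secreted and surface inhibitors, DKK1, DKK3, SFRP1 and KREMEN1 were detected on all arrays, while SFRP2, FRZB and WIF1 were not well above background on any. DKK1, which blocks LRP5 and LRP6, and KREMEN1, a transmembrane receptor of Dickkopf proteins that removes LRP6 from the surface with DKK1, both had an unadjusted p under 0.05. DKK1 had log2 levels of 8.70, 9.11 and 9.05 in tRA/cAMP cells, against 8.65, 8.32 and 8.45 in control cells. The groups did not overlap, but the lowest tRA/cAMP array lay close to the highest control, and the difference was 0.48 (standard error 0.15, adjusted p = 0.15 in limma). A second DKK1 probe was not detected on any array. KREMEN1 had log2 levels of 8.90, 8.72 and 8.94 in tRA/cAMP cells, against 8.47, 8.54 and 8.46 in control cells. Here too the groups lay apart, with a difference of 0.36 (standard error 0.12, adjusted p = 0.17 in limma). Its second tested probe differed by 0.24 (standard error 0.29) with overlapping groups, and was detected on 2 of the 3 control arrays.

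DKK3, a divergent member of the Dickkopf family, had log2 levels of 10.68, 10.52 and 10.82 in tRA/cAMP cells, against 10.49, 10.64 and 10.95 in control cells. The values intermixed (difference -0.02, standard error 0.15), while its second tested probe differed by -0.32 (adjusted p = 0.42 in limma over all tested probes). SFRP1, which binds Wnt outside the cell, differed by -0.10 (standard error 0.15).

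The tested cytoplasmic components, from Dishevelled to beta-catenin, differed by between -0.19 and 0.12. For Dishevelled, the adaptor that Frizzled recruits, DVL2 and DVL3 differed by 0.09 each, and DVL1 was not well above background. NKD2, an antagonist that binds Dishevelled, had log2 levels of 11.64, 11.55 and 11.57 in tRA/cAMP cells, against 11.64, 11.71 and 11.86 in control cells. One tRA/cAMP array reached the lowest control, and the difference was -0.15 (standard error 0.12). NKD1, also an inhibitor known as a beta-catenin target, was not detected on any array.

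Of the destruction complex and its substrate, 6 of 7 genes were detected on all arrays and none had an unadjusted p under 0.05 in limma. AXIN1, the scaffold of the complex, had log2 levels of 12.69, 12.80 and 12.81 in tRA/cAMP cells, against 12.59, 12.57 and 12.93 in control cells. The ranges overlapped, with a difference of 0.07 (standard error 0.13). AXIN2, a scaffold whose gene is itself a standard readout of beta-catenin activity, averaged 11.14 ± 0.12 in tRA/cAMP cells and 11.15 ± 0.21 in control cells (SD, n = 3 each). Its difference was -0.02 (95% interval -0.33 to 0.29). This interval left out changes of 1.5-fold in either direction, but it rests on a spread that may be technical only. CTNNB1, the gene of beta-catenin, differed by -0.15 (95% interval -0.53 to 0.23), and its second tested probe by -0.19. Its other 5 probes were not detected on any array. The kinase genes GSK3B and CSNK1A1 differed by -0.19 and 0.02, and CTNNBIP1, which blocks beta-catenin from binding TCF, by 0.12. APC was not well above background.

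At the nuclear end, TCF7L2, LEF1, TLE1 and TLE3 were tested, and TCF7L1, a mostly repressive TCF, was detected on 1 control array alone. Its log2 levels were 6.43, 7.25 and 6.75 in tRA/cAMP cells, against 6.66, 7.12 and 7.74 in control cells, and these overlapped. LEF1, both a mediator and a target of the pathway, had log2 levels of 11.95, 12.06 and 11.55 in tRA/cAMP cells, against 11.92, 12.00 and 12.09 in control cells. One tRA/cAMP array lay below all the others and the rest intermixed, with a difference of -0.15 (standard error 0.15), and the second tested probe differed by -0.23. TCF7L2 and TLE1 differed by -0.01 and -0.18.

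TLE3, a Groucho-type corepressor, was the member nearest to the threshold. Its log2 levels were 10.32, 10.51 and 10.50 in tRA/cAMP cells, against 9.78, 10.00 and 10.01 in control cells. All tRA/cAMP arrays lay above all controls, with a difference of 0.51 (standard error 0.12), or 1.43-fold, and an adjusted p of 0.0628 in limma. It passed in 3 of 17 alternatives: without background correction (0.44, adjusted p = 0.0445 in limma), in the deposited normalized table (0.44, adjusted p = 0.0444 in limma) and in a robust fit with a trend in the variance (0.51, adjusted p = 0.049 in limma). In the other 14 it kept its sign and did not pass, with an adjusted p in limma of up to 0.495, which was reached without normalization between arrays.

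MYC, a transcription factor of cell growth and a known target of beta-catenin, was the only member listed as a target alone. Its log2 levels were 10.68, 10.51 and 10.83 in tRA/cAMP cells, against 10.97, 11.28 and 11.20 in control cells. The groups did not overlap, with a difference of -0.48 (standard error 0.14, adjusted p = 0.12 in limma), and its second tested probe differed by -0.33 with overlapping groups.

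**Figure D2:**
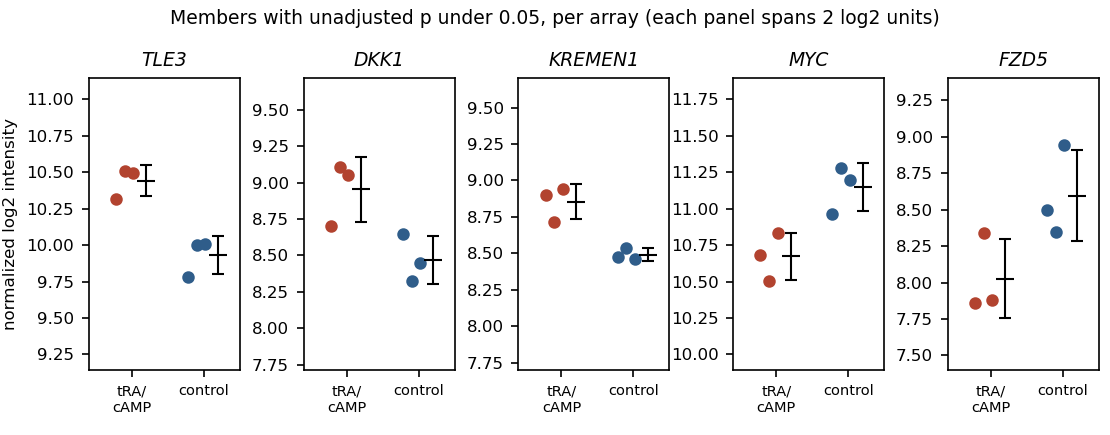
Normalized log2 intensity on each array (points, tRA/cAMP left, control right) with mean and SD (bars, n = 3), for the 5 members with an unadjusted p under 0.05. In TLE3, DKK1 and KREMEN1 the tRA/cAMP arrays lie above the controls and in MYC and FZD5 below, but none of the 5 passed the threshold after adjustment (limma, adjusted p = 0.0628 to 0.174).

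Across the roles, 5 of 37 tested members had an unadjusted p under 0.05 in limma, 3 higher and 2 lower, where 14.2% of all tested genes had one (6.86% higher and 7.36% lower). In 6 of 37 the groups did not overlap, 3 above and 3 below, where the groups of 18.9% of all tested genes did not (9.20% above and 9.71% below). Both counts lie near the share of all genes. The 52 members had 81 probes, 50 of them tested, and 0 of these passed the threshold in limma over all tested probes, where 5 had an unadjusted p under 0.05. Of 11 members with more than 1 tested probe, the probes had 1 sign in 7 and both signs in 4 (CSNK1A1, FZD7, ROR1 and RYK), whose differences all lay between -0.15 and 0.19.

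**Figure D3:**
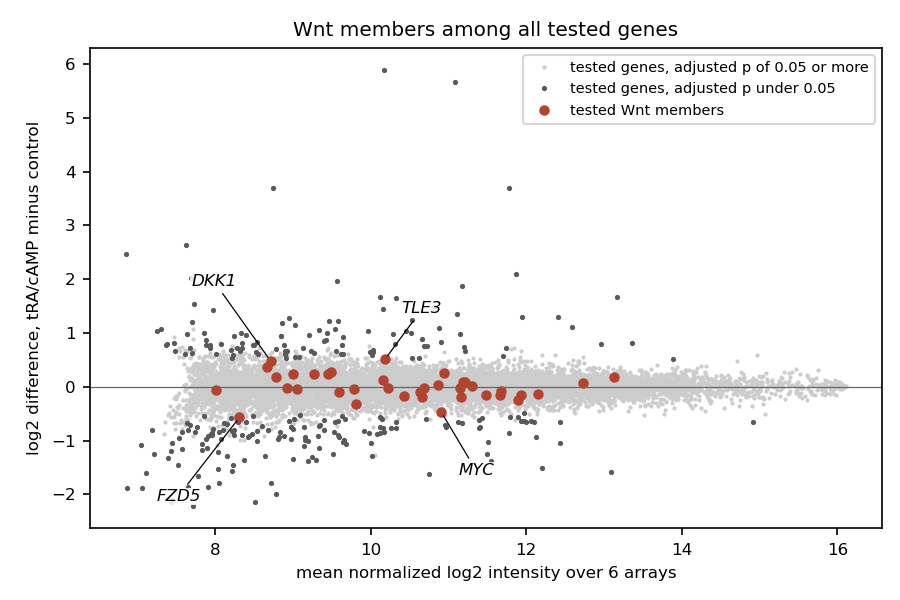
Log2 difference (tRA/cAMP minus control) against the mean normalized log2 intensity over the 6 arrays, for all 9942 tested genes (light grey, dark grey where called) and the 37 tested members (red). The members lie between -0.57 and 0.51, and none of them was called.

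A further 110 genes of the pathway were looked at beside the members. They were listed for other ligands, receptors and surface proteins, inhibitors, cytoplasmic and nuclear components, planar polarity and beta-catenin targets. A probe was listed for 104 of them and 65 were tested. CD44, CCND1, AMER1 and SHISA2 fell and CDX2 rose (4 lower and 1 higher in limma, where 1.45% and 1.09% of all tested genes were called lower and higher). The median difference of the 65 was -0.14, against 0.0018 over all tested genes. Of the 65, 47 were below 0 and 18 above, against 4928 and 5014 of all 9942 genes. At an unadjusted p under 0.05 in limma 14 of the 65 were lower and 5 higher, where 7.36% of all tested genes were lower and 6.86% higher.

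CD44, the hyaluronan receptor and a known beta-catenin target, fell most. Its log2 levels were 10.90, 10.95 and 10.78 in tRA/cAMP cells, against 12.13, 11.98 and 12.27 in control cells, a 2.38-fold decrease (difference -1.25, standard error 0.12, adjusted p = 4.7e-04 in limma), and its second tested probe differed by -1.54. CCND1, the gene of cyclin D1, which drives entry into the cell cycle, had log2 levels of 11.54, 11.66 and 11.63 in tRA/cAMP cells, against 12.22, 12.23 and 12.29 in control cells. It fell 1.56-fold (standard error 0.11 on the log2 scale, adjusted p = 0.0144 in limma). In both genes the groups lay well apart.

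AMER1, which binds APC and tethers the destruction complex to the membrane, had log2 levels of 10.03, 9.90 and 10.03 in tRA/cAMP cells, against 10.79, 10.66 and 10.50 in control cells, and fell 1.58-fold (adjusted p = 0.019 in limma). SHISA2, which in the frog is known to hold Frizzled and FGF receptors inside the cell, had log2 levels of 11.70, 11.66 and 11.65 in tRA/cAMP cells, against 12.37, 12.52 and 12.10 in control cells, and fell 1.58-fold (adjusted p = 0.0289 in limma). CDX2, a caudal-type homeobox factor of the posterior embryo and the intestine, had log2 levels of 10.37, 10.22 and 10.33 in tRA/cAMP cells, against 9.60, 9.64 and 9.75 in control cells. It rose 1.56-fold (adjusted p = 0.0158 in limma). None of these groups overlapped.

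Of these 5 calls, that of CD44 held in all 17 alternatives and the other calls did not, though each kept its sign. In fits with 1 array fewer, CCND1 missed the threshold without control replicate 2 or 3 or tRA/cAMP replicate 1 or 2 (adjusted p = 0.0515, 0.0518, 0.0611 and 0.0506 in limma), AMER1 without control replicate 1 or 2 or tRA/cAMP replicate 1 or 2 (0.0747, 0.0683, 0.0579 and 0.0854), CDX2 without control replicate 1 or 2 or tRA/cAMP replicate 1 or 3 (0.0658, 0.0627, 0.0676 and 0.0532), and SHISA2 without control replicate 1 or 2 or any tRA/cAMP replicate (0.0837 to 0.11). All 4 also missed it without normalization between arrays (0.0618 to 0.268) and with no filter on dim probes (0.0527 to 0.1), and SHISA2 with the replicate number as a block (0.0569).

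**Figure D4:**
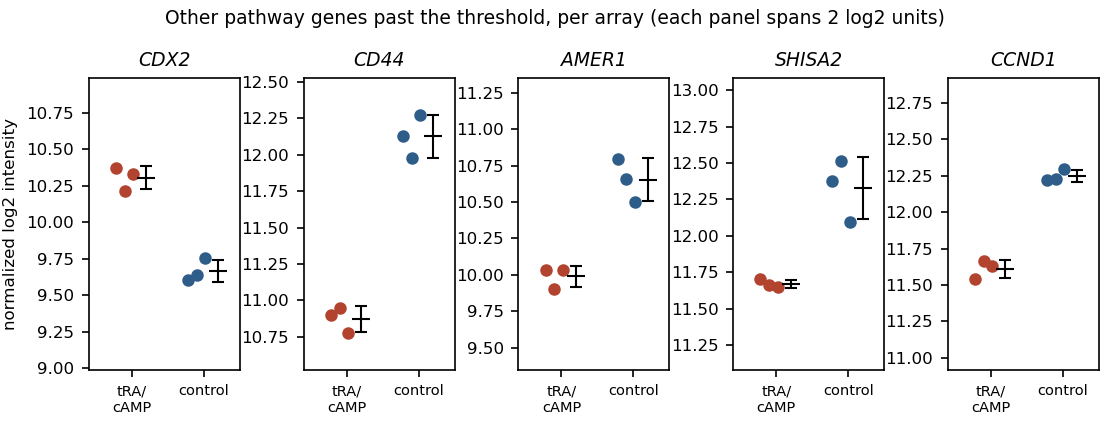
Normalized log2 intensity on each array (points, tRA/cAMP left, control right) with mean and SD (bars, n = 3) for the 5 pathway genes outside the members that passed the threshold. CDX2 is higher with tRA/cAMP and CD44, AMER1, SHISA2 and CCND1 are lower, with no overlap between the groups.

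Among the known beta-catenin targets the calls thus went both ways. Of 27 in the list, 25 had a probe and 15 were tested: CDX2 rose, CD44 and CCND1 fell, and the other 12, among them AXIN2, LEF1, ZNRF3, SP5, BAMBI and SOX9, did not pass. Called or not, 10 of the 15 differed downward and 5 upward, with a median of -0.09, where 4928 of all 9942 tested genes differed downward. AXIN2, LEF1, DKK1, MYC and ZNRF3 are counted both here and among the members.

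Promoter sequence is shown for 3 members among those nearest to the threshold and for 2 of the called genes, to set their bases beside the values above. These genes were picked and do not stand for the rest. MYC and KREMEN1, also near the threshold, and the called genes CCND1, AMER1 and SHISA2 are not shown. No match was listed for any of them, and whether each had a listed promoter is not given here. Each is the stretch of 250 bases before the gene's first listed start in RefSeq (GRCh38.p14; TLE3 has several listed starts), on the gene's own strand, with matches in capitals. The searched motifs were CTTTGAT and CTTTGAA (TCF/LEF), TGACG (the half-site of CREB, part of the full site TGACGTCA) and AGGTCA and AGTTCA (half-sites of retinoic acid receptors), on both strands. DKK1 is at chr10:52314031-52314280 (plus strand), TLE3 at chr15:70097918-70098167 (minus), FZD5 at chr2:207769907-207770156 (minus), CDX2 at chr13:27969316-27969565 (minus) and CD44 at chr11:35138921-35139170 (plus).
DKK1: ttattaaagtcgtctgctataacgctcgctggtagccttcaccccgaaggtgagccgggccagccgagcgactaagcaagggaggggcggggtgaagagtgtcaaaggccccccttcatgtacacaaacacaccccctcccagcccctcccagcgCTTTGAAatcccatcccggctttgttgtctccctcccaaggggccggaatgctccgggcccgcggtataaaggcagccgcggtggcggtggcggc
TLE3: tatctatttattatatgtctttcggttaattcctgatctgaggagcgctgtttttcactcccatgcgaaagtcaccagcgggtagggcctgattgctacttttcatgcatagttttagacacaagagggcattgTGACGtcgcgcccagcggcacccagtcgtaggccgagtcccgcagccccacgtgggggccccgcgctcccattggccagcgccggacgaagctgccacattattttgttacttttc
FZD5: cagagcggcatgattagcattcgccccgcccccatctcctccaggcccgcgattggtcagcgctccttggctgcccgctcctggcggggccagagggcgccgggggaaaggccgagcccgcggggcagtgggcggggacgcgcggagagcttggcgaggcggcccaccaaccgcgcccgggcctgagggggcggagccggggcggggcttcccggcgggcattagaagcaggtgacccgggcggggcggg
CDX2: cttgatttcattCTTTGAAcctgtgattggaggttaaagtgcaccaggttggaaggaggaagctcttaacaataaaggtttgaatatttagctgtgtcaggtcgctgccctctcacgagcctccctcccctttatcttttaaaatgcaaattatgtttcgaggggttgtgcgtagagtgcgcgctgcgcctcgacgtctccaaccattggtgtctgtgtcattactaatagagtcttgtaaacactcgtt
CD44: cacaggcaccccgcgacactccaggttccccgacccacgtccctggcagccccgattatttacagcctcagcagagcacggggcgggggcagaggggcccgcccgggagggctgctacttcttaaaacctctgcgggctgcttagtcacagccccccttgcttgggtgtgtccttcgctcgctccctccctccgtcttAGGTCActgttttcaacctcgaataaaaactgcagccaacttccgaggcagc

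DKK1 held CTTTGAA from base -95 to -89 before its start, and CDX2 held the same letters from -238 to -232. TLE3 held TGACG from -116 to -112 and CD44 held AGGTCA from -52 to -47, while these letters were not in the window of FZD5. A promoter was listed for 38 members. TCF/LEF letters were in 1 of these 38, that of DKK1, and in 6.03% of 27305 promoters of the same length. TGACG was in 9 of 38 (23.7%) against 21.7% of all, TGACGTCA in 1 (DVL1) against 1.77%, and AGGTCA or AGTTCA in 3 (7.89%) against 19.8%. These matches are a description of the sequence and were not tested as sites.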

How the data were processed

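Total RNA of 6 HEK293 samples was labelled with biotin and hybridized to Illumina bead arrays, per the labels. The deposited intensity values are average bead signals per probe and array from BeadStudio, per the submitters' processing notes, on a linear scale and not normalized between arrays, with no BeadStudio version given. A detection p-value per probe and array was deposited too, per the file headers, with steps that imply 759 negative controls. A second deposited intensity table ranked probes as the raw signals did and held nearly the same distribution in each column (medians 250.12 to 250.22), so it was read as quantile normalized without background subtraction and used as an alternative. The sources used here do not state how the authors made it.

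Groups and replicate numbers came from the sample titles. The R 4.3.3 package limma 3.58.1 processed the raw signals with its function neqc (normexp background correction, negative controls taken from the detection p-values, an offset of 16, quantile normalization, log2). Gene names came from the platform annotation: of 48803 probes 28098 had 1 gene name, 13 had several and 20692 had none listed, and RefSeq gene numbers were found for 28059. Each gene was tested on its probe with the highest mean raw signal, with lmFit and eBayes over all 6 arrays without covariates and Benjamini-Hochberg adjustment over 9942 genes, or over 14923 probes where probes are compared. The fit was also run on simulated data with independent normal noise, and no result here rests on that run. Same-numbered samples did not deviate together (correlations 0.056, -0.047 and -0.037), so the numbers were not taken as pairs.

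The members, lists and tests were chosen with earlier results of these data known. Values per array are given for members with an unadjusted p under 0.05 and groups that do not overlap, for those detected in 1 group only, and for the tested member with the highest level in each role group; WNT2B, AXIN2 and further members given by their difference were picked after their values were seen. Of the other pathway genes, those past the threshold are given with values. Alternatives covered background, normalization, filter, probe rule, variance model, replicate block and fits with 1 array fewer. Python 3.11.15 and matplotlib 3.10.9 made the plots.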

Additional observations from a re-analysis of the deposited data

How the results depend on the processing

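All 17 alternatives were planned, though the members, lists and tests were chosen with earlier results of these data known. Between 0 and 1 members were called higher and 0 lower in each: TLE3 gave the 1 without background correction, from the deposited normalized values and in a robust fit with a trend in the variance. The median difference of tested members was -0.021, and -0.14 without normalization between arrays, where the median of all genes was -0.101; without 1 array it lay between -0.038 and 0.039. FZD5, DKK1, KREMEN1 and MYC kept their sign and did not pass in any of the 17 (lowest adjusted p in limma 0.117, 0.096, 0.174 and 0.0517). Of the other pathway genes, 2 were called higher without background correction, from the deposited values and in the robust fit. Without normalization 0 were higher and 1 lower, with no filter on dim probes 0 higher and 2 lower, and without 1 array 0 to 1 higher and 1 to 3 lower. The 2 called with no filter were CD44 and WNT8A, and WNT8A was not detected on any array. Over all genes the counts were 52 to 83 higher and 86 to 113 lower without 1 array, in fits with fewer arrays. They were 43 higher and 120 lower without normalization, 53 higher and 77 lower with no filter, and 77 higher and 89 lower with detection on all 6 arrays. With the replicate block, 0 members were called, and 1 other pathway gene was higher and 3 lower; the correlations of same-numbered samples were 0.056, -0.047 and -0.037. With 3 arrays per group the precision is limited, and the dim probe of WNT2B had the highest standard error among the tested members, 0.32.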

Other observations

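Beyond the genes above, a few pathway genes that did not pass the threshold are named here after their values were seen. PRICKLE1, a planar polarity protein, differed by 0.49 (log2 11.40 ± 0.19 in tRA/cAMP cells and 10.92 ± 0.04 in control cells, SD, n = 3 each, adjusted p = 0.0917 in limma), and DACT1, which binds Dishevelled, by -0.78 (9.01 ± 0.32 in tRA/cAMP cells and 9.78 ± 0.34 in control cells, SD, n = 3 each, adjusted p = 0.0792 in limma). Both passed the threshold without background correction, in the deposited normalized table and with the variance trend and robust fit, and DACT1 also with the mean of probes. BCL9, a beta-catenin cofactor, differed by -0.43 and WLS, which carries Wnt proteins to the cell surface, by -0.36 (adjusted p = 0.0924 and 0.191 in limma), with no overlap between the groups in either.

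By list, 27 other cytoplasmic and nuclear components were tested, with 20 differences below 0 and 7 above and a median of -0.14. Of 16 tested planar polarity genes, 11 were below and 5 above, with a median of -0.13. Of 8 tested receptors and surface proteins outside the members, 6 were below and 2 above, with a median of -0.23. Of 15 genes listed for other ligands, R-spondins and the carrier WLS, 10 were not detected on any array. Only RSPO3 and WLS of this list were tested.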
